A study of Mus musculus with 12 samples.

Results

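The genes described here changed in one direction whenever cultured mouse hepatocytes were given FAC, whether or not a scavenger of reactive oxygen species (ROS) had been added beforehand. FAC is the common abbreviation of ferric ammonium citrate, a soluble iron salt, although the labels do not spell it out. All 9 libraries that received FAC were set against the 3 control libraries, each FAC-treated group having equal weight, and each group was also compared with control alone. A gene was called at a Benjamini-Hochberg adjusted p under 0.05 in the quasi-likelihood test of edgeR. Of 55487 genes listed, 13535 had enough counts to be tested, and 983 were called with one sign in all 3 groups. Of these, 612 were higher and 371 were lower than control. They are called shared genes from here on. The calls against control chose these genes, and the 3 comparisons use the same control libraries, so the fold changes against control describe the shared genes and their number is not evidence of agreement between the groups.

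The libraries came from primary hepatocytes of the liver, its main metabolic cells, in 4 groups of 3. Control cells had neither FAC nor a scavenger, and FAC cells had FAC alone. Lip-1+FAC cells were given liproxstatin-1, described in the labels as acting on lipid ROS, on day 2 of culture and FAC afterwards. MT+FAC cells were given Mito-TEMPO, described as acting on mitochondrial ROS, in the same way. Neither scavenger was used in the absence of FAC, so in the pretreated groups an effect of FAC and an effect of the scavenger itself cannot be told apart. Mouse strain, sex and age, the FAC dose and the times of exposure are not given in the sources used here. Nothing in the labels says whether replicates were separate mice or cultures, so p-values measure the spread between these libraries, which may be technical.

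Iron inside a cell is sensed by iron regulatory proteins, which bind short RNA hairpins called iron-responsive elements (IREs) when iron is scarce. A hairpin in the 5′ untranslated region (UTR) blocks translation of the mRNA, as in ferritin and ferroportin, whereas hairpins in the 3′ UTR of the transferrin receptor mRNA protect it from decay. Hepatocytes also sense iron through bone morphogenetic protein (BMP) signalling, which drives hepcidin, the circulating hormone that removes ferroportin from cell surfaces. Iron and heme further act on the transcription factors NRF2 and BACH1, whose common targets include heme oxygenase, ferritin and genes of glutathione metabolism.

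The libraries held 22991598 to 31683376 counts assigned to genes. FAC replicate 2, whose file is marked as combined, was deeper at 52529278. Levels are given in CPM, counts per 1000000 after TMM scaling. Replicates correlated with Pearson coefficients between 0.986 and 0.991 across genes, which are not independent replicates. The summed level of 8 hepatocyte markers lay between 48680 and 59634 CPM in every library. Summed macrophage markers ranged from 232 to 266 CPM in control, 296 to 330.3 with FAC, 125 to 153 with Lip-1+FAC and 149.5 to 183 with MT+FAC. Most of that sum was Cd68, a lysosomal gene, and it did not move one way in the 3 FAC-treated groups. Summed cholangiocyte markers rose from between 58.6 and 69.0 CPM in control to between 98.4 and 144.7 in the FAC-treated groups, with Sox9 higher in FAC and Spp1 higher in the pretreated groups. Summed endothelial markers were 41.8 to 42.4 CPM in control and lower in every FAC-treated library, at 39.2 to 41.7 with FAC, 33.96 to 35.1 with Lip-1+FAC and 34.4 to 37.9 with MT+FAC. The highest sum with FAC lay very close to control. Most of the endothelial sum was Stab2, at 26.3 to 29.3 CPM in control and 15.7 to 22.2 in the pretreated groups. Stab1 went the other way and was higher with Lip-1+FAC than in control. Summed stellate cell and fibroblast markers were 21.4 to 29.3 CPM in control, 30.7 to 39.4 with FAC, 15.1 to 18.4 with Lip-1+FAC and 17.3 to 22.2 with MT+FAC. The higher sum with FAC was mainly Reln, at 5.84 to 8.93 CPM in control and 15.9 to 16.2 with FAC, whereas Dcn was lower with FAC. The part of these cell types in the results was not tested. Enough counts for the test were present for 7 of 10 stellate cell and fibroblast, 9 of 10 endothelial and 11 of 12 macrophage markers. The same held for 5 of 6 cholangiocyte and 1 of 6 erythroid markers, and none of these tested markers was a shared gene. Of 7 lymphocyte markers 0 could be tested, and 5 of them (Cd3e, Cd3d, Cd2, Nkg7 and Ms4a1) were at 0 in all 12 libraries. In such bulk libraries fewer cells of a type and less RNA per cell cannot be told apart.

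The hairpins are shown first because mRNAs of iron transport that carry them were among the shared genes. The annotated transcripts were searched for the canonical form, a bulged C, a stem of 5 paired bases and a loop of CAGTGN. Capitals mark the loop, in DNA letters, and positions are GRCm38.
Slc40a1, 5′ UTR (chr1:45925464-45925493, minus strand): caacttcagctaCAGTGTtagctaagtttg
Fth1, 5′ UTR (chr19:9982732-9982761, plus strand): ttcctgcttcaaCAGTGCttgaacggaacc
Ftl1, 5′ UTR (chr7:45459778-45459807, minus strand): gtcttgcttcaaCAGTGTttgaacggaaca
Tfrc, 3′ UTR (chr16:32631219-32631248, plus strand): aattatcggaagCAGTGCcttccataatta
Tfrc, 3′ UTR (chr16:32631598-32631627, plus strand): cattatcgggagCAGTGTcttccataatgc
Tfrc, 3′ UTR (chr16:32631663-32631692, plus strand): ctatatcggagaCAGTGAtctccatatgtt
Tfrc, 3′ UTR (chr16:32631710-32631739, plus strand): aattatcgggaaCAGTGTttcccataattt
The hairpin of Slc40a1 and those of the ferritin genes lie near the 5′ end of their mRNAs, while the 4 of Tfrc lie together in the 3′ UTR. A 5′ UTR match was found in 24 of the 13521 tested genes with an annotated transcript (0.178%) and a 3′ UTR match in 107 (0.791%). Among the shared genes, 1 of 612 higher and 0 of 371 lower genes had a match in the 5′ UTR, and 8 and 2 had one in the 3′ UTR. No match to this strict pattern was found in Slc11a2, whose known element departs from it.

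In the comparison that gives the 3 FAC-treated groups equal weight, 1947 genes (14.4% of those tested) were higher and 2058 (15.2%) were lower than control. Shared calls made up 4.52% of all genes in the upward and 2.74% in the downward direction, and these shares are the background for each gene list below. A change of 0.5 or more on the log2 scale in every comparison was reached by 162 shared genes that rose and 137 that fell, and a change of 1 or more by 29 and 27. The median change was 1.40-fold for the genes that rose and 1.48-fold for those that fell. Control and FAC-treated libraries did not overlap in 939 of the 983 genes, and 952 of the 983 were protein-coding. Calls against these same control libraries chose the genes, so the lack of overlap follows largely from the rule and is no separate support. Neither share is given here for all genes tested. Another 272 genes were called in all 3 groups with mixed signs, and in 271 of these FAC alone stood against both pretreated groups. At the edge of the rule, -0.20, -0.29 and -0.22 for Chmp2a and 0.31, 0.43 and 0.26 for Senp6, the log2 fold changes in FAC, Lip-1+FAC and MT+FAC, lay just inside, and -0.64, -0.61 and -0.58 for 1810062G17Rik and -0.34, -0.45 and -0.27 for Slc29a1 lay just outside.

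Tfrc, Slc11a2 and Slc39a14, which carry iron inward, fell, and the iron exporter Slc40a1 rose. Of 24 tested genes for cellular iron uptake, storage and export, 2 rose (Slc40a1 and Slc25a37) and 3 fell (Tfrc, Slc11a2 and Slc39a14) in all 3 groups, while 5 were higher and 6 lower under equal weight. The median log2 fold change of the list was 0.07, against -0.03 for all genes tested.

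Slc40a1 (ENSMUSG00000025993, GRCm38 chromosome 1, 45908068 to 45926523) encodes ferroportin, the only known cellular iron exporter. Its level was 606, 592 and 611 CPM in control, 1361, 1357 and 1214 with FAC, 1447, 1511 and 1488 with Lip-1+FAC and 1329, 1304 and 1321 with MT+FAC. Every FAC-treated library lay far above the highest control library. The equal-weight log2 fold change was 1.18 (standard error 0.0468, adjusted p by edgeR = 6.64e-12), and the changes were 1.12 with FAC, 1.30 with Lip-1+FAC and 1.13 with MT+FAC. The level differed among the 3 FAC-treated groups (edgeR adjusted p = 0.016), Lip-1+FAC being higher than FAC by 0.18 (95% confidence interval 0.07 to 0.29) on the log2 scale.

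Tfrc (ENSMUSG00000022797, GRCm38 chromosome 16, 32608920 to 32632794) encodes transferrin receptor 1, the uptake route for transferrin-bound iron. Its level was 73.99, 65.2 and 59.6 CPM in control, 27.8, 25.9 and 20.2 with FAC, 18.7, 19.1 and 23.2 with Lip-1+FAC and 17.03, 17.03 and 19.1 with MT+FAC. The highest FAC-treated library lay well under the lowest control library. The equal-weight change was -1.68 (standard error 0.0875, adjusted p by edgeR = 4.51e-10) on the log2 scale, and the changes by group were -1.42 with FAC, -1.71 with Lip-1+FAC and -1.91 with MT+FAC. The fall was larger in MT+FAC than in FAC, with a difference of -0.48 (95% confidence interval -0.73 to -0.23) on the log2 scale.

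Slc11a2 (ENSMUSG00000023030, GRCm38 chromosome 15, 100387898 to 100425072) encodes DMT1, which carries ferrous iron out of endosomes. It stood at 103, 93.9 and 91.9 CPM in control, 65.5, 69.2 and 68.1 with FAC, 84.8, 75.4 and 86.3 with Lip-1+FAC and 79.7, 75.6 and 78.2 with MT+FAC. Every control library was above every FAC-treated library, and the level was lowest in FAC alone. The equal-weight log2 fold change was -0.35 (standard error 0.0530, adjusted p by edgeR = 9.68e-05). For this gene the call in Lip-1+FAC was lost without control replicate 1 or Lip-1+FAC replicate 2, at log2 fold changes of -0.16 to -0.17 (adjusted p 0.0932 to 0.1). Its exons overlap those of other genes over 6.33% of their length.

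Slc39a14 (ENSMUSG00000022094, GRCm38 chromosome 14, 70303469 to 70351425) encodes ZIP14, through which hepatocytes take up iron not bound to transferrin, as well as zinc and manganese. Its level was 266, 234 and 228 CPM in control, 189.6, 189 and 216 with FAC, 127, 139 and 143.2 with Lip-1+FAC and 159, 164 and 165 with MT+FAC. The fall was smallest with FAC alone and largest with liproxstatin-1. Under equal weight the log2 fold change was -0.57 (standard error 0.0549, adjusted p by edgeR = 7.17e-07). Slc25a37 (ENSMUSG00000034248, GRCm38 chromosome 14, 69241848 to 69285112), which encodes mitoferrin 1, an importer of iron into mitochondria, went the other way, with 12.6, 13.1 and 14.5 CPM in control, 21.4, 21.4 and 18.7 with FAC, 25.5, 20.1 and 24.2 with Lip-1+FAC and 21.8, 18.3 and 19.5 with MT+FAC. Control libraries were lowest throughout. On the log2 scale it changed by 0.66 (standard error 0.0941, adjusted p by edgeR = 4.6e-05) under equal weight, and no difference among the FAC-treated groups was called (edgeR adjusted p = 0.189), the differences from FAC on the log2 scale with their 95% confidence intervals being 0.18 (-0.05 to 0.41) for Lip-1+FAC and -0.05 (-0.27 to 0.18) for MT+FAC.

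Ferritin mRNA did not meet the rule. Fth1 (ENSMUSG00000024661, GRCm38 chromosome 19, 9980598 to 9985098), the ferritin heavy chain, stood at 3969, 3432 and 4010.3 CPM in control, 5552, 5138 and 5349 with FAC, 4830.5, 4589.9 and 4045 with Lip-1+FAC and 3722, 3786 and 3928 with MT+FAC. FAC libraries were above control and MT+FAC libraries were within the control range. Its log2 fold changes were 0.49 with FAC, 0.24 with Lip-1+FAC and 0.0032 with MT+FAC, and the difference among the 3 groups was called (edgeR adjusted p = 8.96e-05). Ftl1, the light chain, was not called under equal weight (0.18 (standard error 0.219, adjusted p by edgeR = 0.583)). Its values are uncertain, because 34.6% of its exonic bases overlap another gene and its copy Ftl1-ps1 is 99.6% identical. Fbxl5, which marks iron regulatory protein 2 for degradation, showed log2 fold changes of -0.02 with FAC, 0.55 with Lip-1+FAC and 0.46 with MT+FAC, a rise called only with a scavenger, and the difference among the groups was called (edgeR adjusted p = 3.35e-06).

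Of 12 transcripts with a known IRE, Slc40a1 and Cdc42bpa rose and Tfrc and Slc11a2 fell in all 3 groups. Cdc42bpa (ENSMUSG00000026490, GRCm38 chromosome 1, 179960472 to 180165603), a kinase that acts on the actin cytoskeleton, lay between 25.9 and 30.2 CPM in control and between 38.1 and 57.6 CPM in the FAC-treated libraries. The groups did not overlap, and the log2 fold change was 0.72 (standard error 0.0710, adjusted p by edgeR = 9.35e-07). Epas1, which encodes HIF2α, had log2 fold changes of -0.14 with FAC, -0.63 with Lip-1+FAC and -0.55 with MT+FAC and was not a shared gene.

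**Figure D1:**
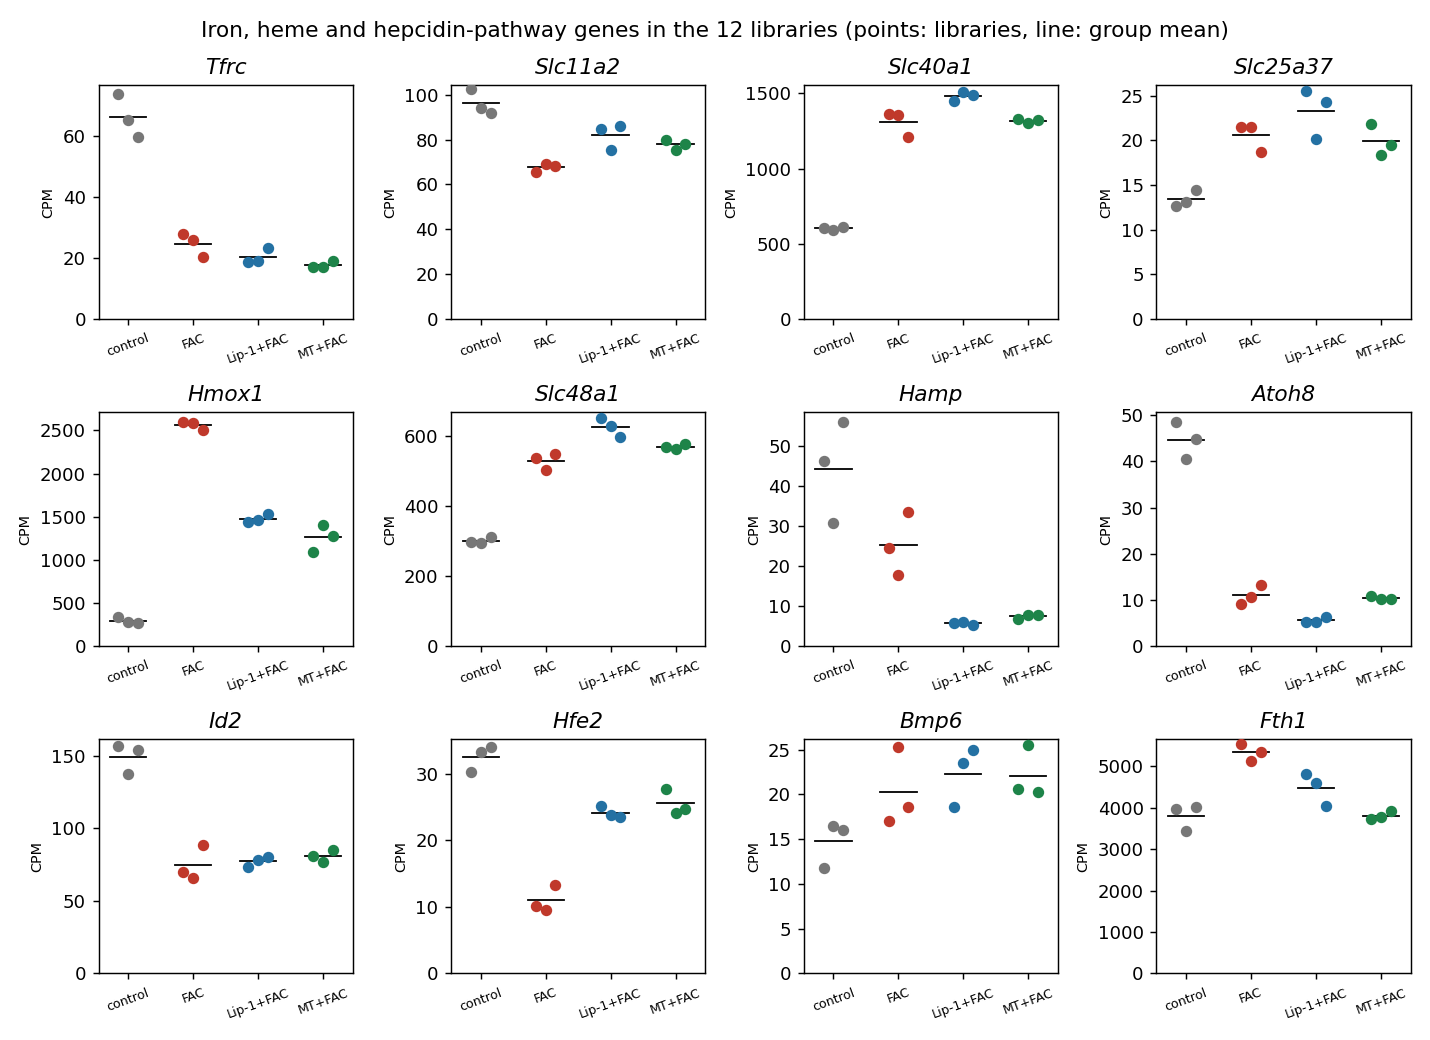
Level of 12 genes of iron, heme and hepcidin regulation in each of the 12 libraries (y axis, CPM from 0; x axis, group; points are libraries and the line is the group mean). Tfrc, Atoh8 and Id2 are lower and Slc40a1, Hmox1 and Slc48a1 higher than control in every FAC-treated library, whereas Fth1 in MT+FAC lies within the control range and Hamp overlaps between control and FAC.

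Hepcidin fell, as did Atoh8 and Id2, which respond to BMP signalling. Of 20 tested genes of hepcidin control and BMP-SMAD signalling, 4 fell (Hamp, Atoh8, Id2 and Hfe2) and 3 rose (Bmp6, Neo1 and Smad4) in all 3 groups, and 6 were higher and 7 lower under equal weight. Of the falls, Hamp, Atoh8 and Id2 are outputs of the pathway and Hfe2 encodes a co-receptor. Of the rises, Bmp6 encodes a ligand, Neo1 a co-receptor and Smad4 the common SMAD. Other outputs, Id1, Id3 and Smad7, were not shared genes.

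Atoh8 (ENSMUSG00000037621, GRCm38 chromosome 6, 72206177 to 72235577) encodes a transcription factor that activates the hepcidin gene. Ranked by the smallest of its 3 changes it led the shared falls, with 48.5, 40.5 and 44.9 CPM in control, 9.17, 10.8 and 13.2 with FAC, 5.28, 5.22 and 6.39 with Lip-1+FAC and 10.8, 10.2 and 10.3 with MT+FAC. The FAC-treated libraries lay far below the lowest control library. The equal-weight log2 fold change was -2.37 (standard error 0.0904, adjusted p by edgeR = 5.62e-12), with -2.02 with FAC, -2.99 with Lip-1+FAC and -2.09 with MT+FAC. The level was lower in Lip-1+FAC than in FAC by a log2 difference of -0.97 (95% confidence interval -1.25 to -0.69).

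Hamp (ENSMUSG00000050440, GRCm38 chromosome 7, 30942368 to 30944032) encodes hepcidin. Its level was 46.1, 30.9 and 55.9 CPM in control, 24.5, 17.8 and 33.6 with FAC, 5.75, 6.18 and 5.33 with Lip-1+FAC and 6.72, 7.795 and 7.902 with MT+FAC. FAC replicate 3 lay above control replicate 2, so control and FAC overlapped, whereas all 6 pretreated libraries were under 8 CPM. Log2 fold changes were -0.82 with FAC, -2.94 with Lip-1+FAC and -2.57 with MT+FAC, and the equal-weight value was -2.11 (standard error 0.184, adjusted p by edgeR = 1.1e-05). The 3 groups differed (edgeR adjusted p = 8.6e-05), and the call in FAC was lost without control replicate 3 or FAC replicate 1, at log2 fold changes of -0.62 to -0.80 (adjusted p 0.0539 to 0.0656). 

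Id2 (ENSMUSG00000020644, GRCm38 chromosome 12, 25093799 to 25097140), an inhibitor of basic helix-loop-helix factors and a target of BMP signalling, stood at 157, 138 and 154 CPM in control, 69.8, 65.7 and 88.7 with FAC, 73.5, 78.1 and 79.8 with Lip-1+FAC and 81.1, 76.7 and 85.2 with MT+FAC. All 9 FAC-treated libraries lay near the same level. Equal weighting gave a log2 fold change of -0.95 (standard error 0.0709, adjusted p by edgeR = 5.38e-08). No difference among the FAC-treated groups was called (edgeR adjusted p = 0.544). The differences from FAC on the log2 scale, with 95% confidence intervals, were 0.05 (-0.14 to 0.24) for Lip-1+FAC and 0.12 (-0.07 to 0.31) for MT+FAC. Its relatives Id1 and Id3 were not shared genes, because FAC alone was not called. Their log2 fold changes were -0.18, -2.26 and -1.45 for Id1 and -0.21, -0.90 and -0.60 for Id3, in the order FAC, Lip-1+FAC and MT+FAC, and both differed among the 3 groups (edgeR adjusted p = 2.55e-06 and 1.59e-05).

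Hfe2 (ENSMUSG00000038403, GRCm38 chromosome 3, 96525172 to 96529210) encodes hemojuvelin, the BMP co-receptor of hepatocytes. Its level was 30.3 to 33.98 CPM in control, 9.58 to 13.2 with FAC, 23.5 to 25.2 with Lip-1+FAC and 24.2 to 27.8 with MT+FAC. The fall was largest with FAC alone, the log2 fold changes being -1.58 with FAC, -0.43 with Lip-1+FAC and -0.35 with MT+FAC. For Hfe2, the call in Lip-1+FAC was lost with offsets for length and GC content, at a log2 fold change of -0.23 (adjusted p 0.101) and the call in MT+FAC was lost without control replicate 2 or 3 or MT+FAC replicate 2 or 3 and with offsets for length and GC content, at log2 fold changes of -0.21 to -0.33 (adjusted p 0.0641 to 0.163). Bmp6 (ENSMUSG00000039004, GRCm38 chromosome 13, 38345107 to 38500302) ranged over 11.7 to 16.5 CPM in control, 17.1 to 25.3 with FAC, 18.6 to 24.9 with Lip-1+FAC and 20.2 to 25.5 with MT+FAC, a log2 fold change of 0.55 (standard error 0.143, adjusted p by edgeR = 0.00979). For Bmp6, the call in FAC was lost without control replicate 1 or 3, FAC replicate 2, Lip-1+FAC replicate 2 or MT+FAC replicate 3, with upper-quartile scaling and with stranded columns summed, at log2 fold changes of 0.27 to 0.53 (adjusted p 0.0501 to 0.221) and the call in Lip-1+FAC was lost without control replicate 1 or Lip-1+FAC replicate 2 or 3, at log2 fold changes of 0.46 to 0.56 (adjusted p 0.0537 to 0.0686) and the call in MT+FAC was lost without control replicate 1 or MT+FAC replicate 2, at log2 fold changes of 0.45 to 0.47 (adjusted p 0.0995 to 0.103). Smad4 was 0.27 higher on the log2 scale under equal weight, with an SE of 0.0438. Neo1 was 0.50 (standard error 0.0857) higher, and the call in MT+FAC was lost without control replicate 3 or MT+FAC replicate 1 or 2 and with offsets for length and GC content, at log2 fold changes of 0.22 to 0.33 (adjusted p 0.0747 to 0.103). Tfr2, the hepatocyte iron sensor transferrin receptor 2, had log2 fold changes of -0.0016 with FAC, -0.34 with Lip-1+FAC and -0.24 with MT+FAC and was not a shared gene.

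Hmox1, a gene of heme breakdown, and Slc48a1, a gene of heme export from the lysosome, rose. Of 23 tested genes of heme synthesis, transport and degradation, 3 rose (Hmox1, Slc48a1 and Pgrmc1) and 1 fell (Hmox2) in all 3 groups. Of the enzymes of heme synthesis, Alas1, Alad, Uros, Urod, Cpox, Ppox and Fech were not shared genes. The median of the list was 0.0028 under equal weight.

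Hmox1 (ENSMUSG00000005413, GRCm38 chromosome 8, 75093621 to 75100589) encodes heme oxygenase 1, which breaks heme down to biliverdin, carbon monoxide and ferrous iron. Ranked by the smallest of its 3 changes it led the shared rises, with 341, 284 and 269.6 CPM in control, 2595, 2580.0 and 2504 with FAC, 1442, 1458 and 1535 with Lip-1+FAC and 1097, 1408 and 1275 with MT+FAC. The FAC libraries stood highest, and every pretreated library stood above every control library. The change over all FAC-treated groups was 2.50 (standard error 0.0835, adjusted p by edgeR = 6.64e-12) on the log2 scale. Both pretreated groups were lower than FAC, by log2 differences of -0.79 (95% confidence interval -0.98 to -0.61) for Lip-1+FAC and -1.02 (95% confidence interval -1.21 to -0.84) for MT+FAC.

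Slc48a1 (ENSMUSG00000081534, GRCm38 chromosome 15, 97778520 to 97792692), the heme transporter HRG1 of the lysosome membrane, stood at 298, 295 and 311 CPM in control, 538, 504 and 548 with FAC, 650.2, 629 and 597 with Lip-1+FAC and 568, 562 and 577 with MT+FAC. It was higher in every FAC-treated library, and most so with liproxstatin-1. The log2 fold change was 0.93 (standard error 0.0452, adjusted p by edgeR = 1.56e-10) under equal weight. Pgrmc1, a heme-binding membrane protein, lay between 1225 and 1262 CPM in control and between 1396 and 1699.6 CPM in the FAC-treated libraries, a log2 fold change of 0.29 (standard error 0.0405). Hmox2, the constitutive heme oxygenase, was -0.38 (standard error 0.0746) under equal weight, and the call in Lip-1+FAC was lost without control replicate 3 or Lip-1+FAC replicate 3 and with offsets for length and GC content, at log2 fold changes of -0.21 to -0.25 (adjusted p 0.0538 to 0.0741) and the call in MT+FAC was lost without control replicate 1 or 3 or MT+FAC replicate 1, 2 or 3 and with offsets for length and GC content, at log2 fold changes of -0.22 to -0.32 (adjusted p 0.0581 to 0.116). As 40.2% of the exonic bases of Hmox2 overlap another gene, its reads may be shared. Bach1, the heme-sensing repressor of Hmox1, had log2 fold changes of 1.14 with FAC, 0.72 with Lip-1+FAC and 0.32 with MT+FAC, and the value in MT+FAC was not called.

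NRF2 targets were the list with the highest share of shared rises. Of 44 tested targets, 23 rose in all 3 groups (52.3%, against 4.52% of all genes) and 0 fell. Of the 23, Htatip2 lost the shared call in 7 of the 21 alternatives and Nqo1 in 1. Under equal weight 36 were higher and 0 lower. Median log2 fold changes were 0.46 with FAC, 0.89 with Lip-1+FAC and 0.68 with MT+FAC. This list was written with earlier results of these data known, so its count is a description. Of the 44, 35 differed in level among the 3 FAC-treated groups, a test that called 43.1% of all genes.

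The RefSeq promoters (GRCm38.p6, from 250 bases before to 50 after a gene's start) were searched on both strands for the antioxidant response element core TGACNNNGC, to which NRF2 with a small MAF protein binds. A match was found for 17% of the 9868 tested genes with a promoter in the table, for 22.5% of 485 shared genes that rose and for 17% of 289 that fell. Among NRF2 targets it was found for 8 of 16 that rose in all 3 groups and for 11 of the 36 tested. Matches upstream of the RefSeq start in 4 shared rises are printed here to show the searched core in its promoter, in capitals. For Txnrd1 other annotated transcripts start further upstream, so its match lies within the gene span used for the counts.
Txnrd1 (chr10:82859102-82859134, read on the minus strand): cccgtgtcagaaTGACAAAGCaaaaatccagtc
Gclm (chr3:122245411-122245443, read on the minus strand): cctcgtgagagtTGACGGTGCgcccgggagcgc
Mafg (chr11:120633749-120633781, read on the plus strand): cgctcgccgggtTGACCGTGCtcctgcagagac
Cachd1 (chr4:100776438-100776470, read on the minus strand): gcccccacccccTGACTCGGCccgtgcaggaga
A match describes letters in this window and is not evidence of binding. Txnrd1 encodes thioredoxin reductase 1, Gclm the modifier subunit of glutamate-cysteine ligase and Mafg a small MAF protein. Abcc2, another NRF2 target, encodes an exporter of conjugates into bile. Log2 fold changes in FAC, Lip-1+FAC and MT+FAC were 0.71, 1.14 and 0.87 for Txnrd1, 0.61, 0.97 and 0.68 for Gclm, 0.73, 1.85 and 1.25 for Abcc2 and 0.84, 0.82 and 0.58 for Mafg.

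Slc7a11 (ENSMUSG00000027737, GRCm38 chromosome 3, 49892526 to 50443614) encodes the cystine transporter that supplies glutathione synthesis. Its level was 12.3, 12.9 and 14.9 CPM in control, 49.5, 50.5 and 55.5 with FAC, 107, 115 and 108 with Lip-1+FAC and 65.98, 71.8 and 80.1 with MT+FAC. The FAC libraries were well above control, and both pretreated groups were higher still. Its equal-weight log2 fold change was 2.48 (standard error 0.0812, adjusted p by edgeR = 9.87e-13). Relative to FAC, Lip-1+FAC was higher by 1.09 (95% confidence interval 0.92 to 1.26) and MT+FAC by 0.49 (95% confidence interval 0.31 to 0.66) on the log2 scale.

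Cbr3 (ENSMUSG00000022947, GRCm38 chromosome 16, 93683215 to 93690990), carbonyl reductase 3, followed the same order, with 1.58, 1.69 and 1.97 CPM in control, 3.03, 4.48 and 4.24 with FAC, 14.7, 11.9 and 9.22 with Lip-1+FAC and 10.6, 8.47 and 9.46 with MT+FAC. The equal-weight change was 2.13 (standard error 0.184, adjusted p by edgeR = 1.78e-07) on the log2 scale, and the groups differed (edgeR adjusted p = 5.2e-06). Abcc1 (ENSMUSG00000023088, GRCm38 chromosome 16, 14361558 to 14475737), an exporter of glutathione conjugates, had the opposite order, with 2.82, 3.08 and 2.37 CPM in control, 9.83, 9.21 and 11.3 with FAC, 7.17, 5.65 and 6.01 with Lip-1+FAC and 5.38, 8.27 and 6.17 with MT+FAC. FAC alone was highest, and the difference among the groups was called (edgeR adjusted p = 0.00367). On the log2 scale it changed by 1.44 (standard error 0.159) under equal weight.

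Osgin1 (ENSMUSG00000074063, GRCm38 chromosome 8, 119434124 to 119446256), an oxidative stress-induced growth inhibitor, was nearly level across the treated groups, with 371, 421 and 510.1 CPM in control, 1047, 1023 and 881 with FAC, 1231, 1078 and 1095 with Lip-1+FAC and 883, 977 and 1121 with MT+FAC. Control libraries were lowest throughout, and MT+FAC overlapped both other treated groups. Equal weighting gave a log2 fold change of 1.25 (standard error 0.104, adjusted p by edgeR = 3.33e-06). The test among the FAC-treated groups did not call it (edgeR adjusted p = 0.276), and the differences from FAC with their 95% confidence intervals were 0.21 (-0.05 to 0.46) for Lip-1+FAC and 0.01 (-0.24 to 0.27) for MT+FAC.

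Further NRF2 targets rose in all 3 groups. Nqo1, a quinone reductase, had log2 fold changes of 0.43 with FAC, 1.85 with Lip-1+FAC and 1.54 with MT+FAC, and the call in FAC was lost without control replicate 1, at a log2 fold change of 0.28 (adjusted p 0.053). Srxn1 (sulfiredoxin) had 0.83, 1.94 and 1.51 in the same order, with a difference among groups at an edgeR adjusted p of 6.43e-10. Gclc, the catalytic subunit partner of Gclm, had 0.62, 0.79 and 0.67, and Gsr (glutathione reductase) had 0.39, 0.77 and 0.52. Pgd, an enzyme that yields NADPH in the pentose phosphate pathway, had 0.84, 0.96 and 0.69. Sqstm1, the autophagy receptor p62, had 0.90, 1.29 and 0.91, and 17.3% of its exonic bases overlap another gene. The rises of Gsta1, Gsta2, Cyp2a5 and Me1 are uncertain, because annotated copies of them are 96.6% to 99.5% identical over part or all of their transcripts.

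**Figure D2:**
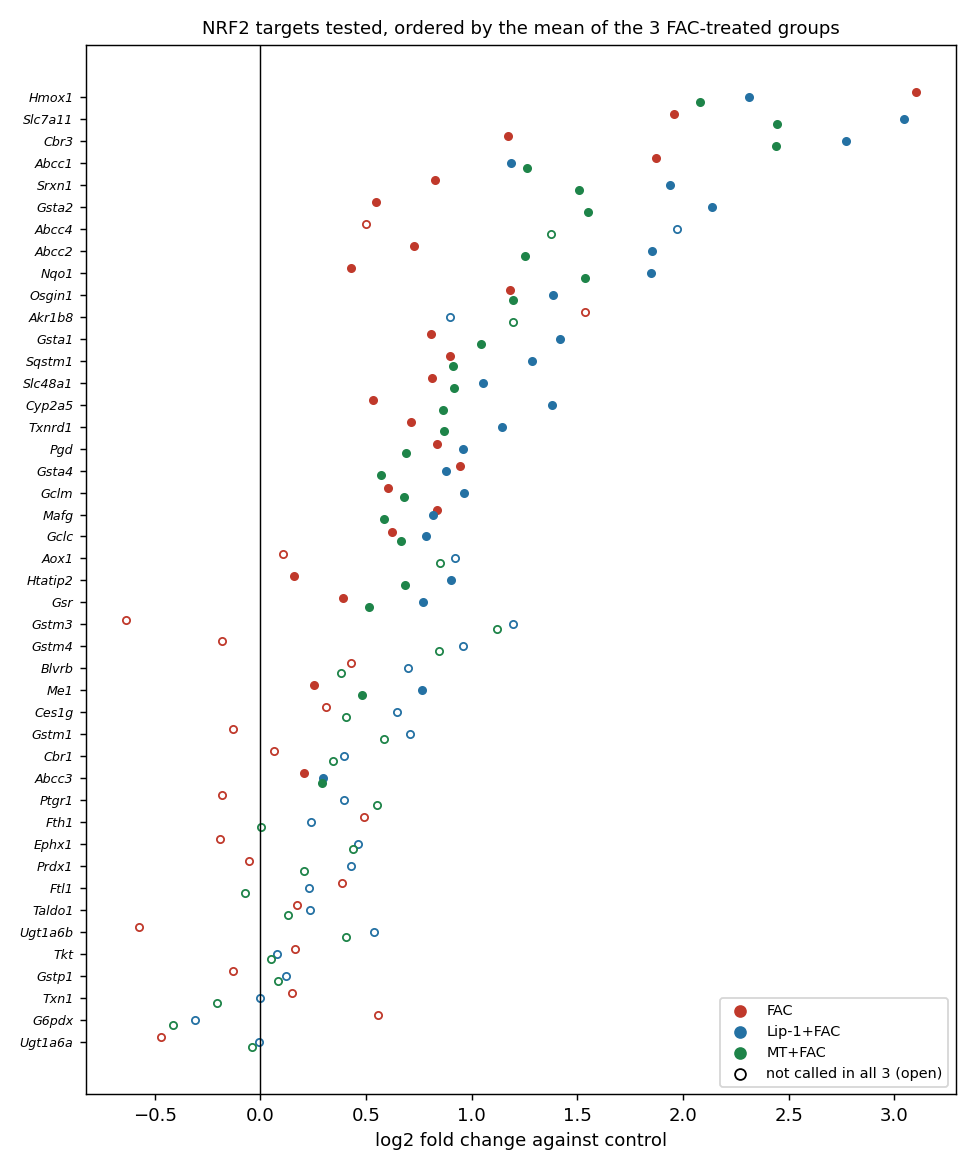
Log2 fold change against control (x axis) of the 44 tested NRF2 targets (y axis), ordered by the mean of the 3 FAC-treated groups; colours are the groups, and filled points mark the 23 genes called higher in all 3. Hmox1 and Abcc1 have their highest value in FAC, while Slc7a11, Cbr3, Srxn1 and Nqo1 have theirs in Lip-1+FAC.

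Shared genes were also ranked by the smallest of their 3 changes, without regard to lists, among protein-coding genes with a mean of at least 5 CPM and no overlap between control and FAC-treated libraries. The 12 rises were Hmox1, Slc7a11, Cachd1, Cdkn2b, Abcc1, Osgin1, D630045J12Rik, Cbr3, Dlg5, Slc40a1, Samd4 and Ccl2. The 12 falls were Atoh8, Tfrc, Tbx3, Neu3, Pck1, Aldh8a1, Plin5, Tedc2, Gtse1, Cxcl12, Hdhd3 and Arg1. All 24 kept their call in all 3 groups under each of the 21 alternatives that kept the threshold and refitted the named genes. They were picked from these same libraries for large changes without overlap, so this outcome was nearly fixed in advance and is not support.

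Cachd1 (ENSMUSG00000028532, GRCm38 chromosome 4, 100776675 to 101029220), a membrane protein related to accessory subunits of calcium channels, stood at 30.8, 35.9 and 29.2 CPM in control, 119.9, 128 and 98.5 with FAC, 148.3, 177 and 176 with Lip-1+FAC and 140.2, 185 and 167 with MT+FAC. Each FAC-treated library was above the control range. The change over all FAC-treated groups was 2.20 (standard error 0.116, adjusted p by edgeR = 3.28e-08) on the log2 scale. Cdkn2b (ENSMUSG00000073802, GRCm38 chromosome 4, 89306299 to 89311039), the cell-cycle inhibitor p15, stood at 2.65, 2.96 and 1.82 CPM in control, 6.58, 8.06 and 8.07 with FAC, 8.296, 9.79 and 11.4 with Lip-1+FAC and 6.78, 6.84 and 7.47 with MT+FAC. Its control level was low, and the log2 fold change was 1.70 (standard error 0.159, adjusted p by edgeR = 4.97e-07). Dlg5, a scaffold protein of cell junctions, lay between 6.75 and 10.3 CPM in control and between 17.4 and 23.00 CPM in the FAC-treated libraries, a log2 fold change of 1.29 (standard error 0.110). D630045J12Rik, whose role is not described here, lay between 2.48 and 3.59 CPM in control and between 5.77 and 7.82 CPM in the FAC-treated libraries, a log2 fold change of 1.28 (standard error 0.143). Samd4, an RNA-binding repressor of translation, lay between 10.7 and 17.9 CPM in control and between 30.2 and 46.03 CPM in the FAC-treated libraries, a log2 fold change of 1.35 (standard error 0.118). Neither Dlg5 nor D630045J12Rik was called among the FAC-treated groups (edgeR adjusted p = 0.247 and 0.649).

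Among the falls, Neu3 (ENSMUSG00000035239, GRCm38 chromosome 7, 99811439 to 99828417), a sialidase of the plasma membrane that acts on gangliosides, stood at 20.3, 18.4 and 16.2 CPM in control, 1.900, 2.47 and 2.02 with FAC, 5.39, 3.86 and 4.99 with Lip-1+FAC and 7.19, 6.64 and 7.297 with MT+FAC. FAC alone was lowest, and MT+FAC was nearest to control. The equal-weight log2 fold change was -2.14 (standard error 0.110, adjusted p by edgeR = 3.04e-10). Aldh8a1 (ENSMUSG00000037542, GRCm38 chromosome 10, 21377291 to 21396585), an aldehyde dehydrogenase of tryptophan breakdown, had the same order, with 65.8, 61.03 and 62.5 CPM in control, 11.03, 10.5 and 10.8 with FAC, 23.6, 25.2 and 26.7 with Lip-1+FAC and 35.3, 26.7 and 26.2 with MT+FAC. Its log2 fold change was -1.66 (standard error 0.0755, adjusted p by edgeR = 5.86e-11), and both genes differed among the groups (edgeR adjusted p = 8.72e-07 and 3.12e-08). Tbx3 (ENSMUSG00000018604, GRCm38 chromosome 5, 119670669 to 119684724), a T-box transcription factor, ranged over 18.98 to 26.4 CPM in control, 4.93 to 7.31 with FAC, 6.43 to 7.39 with Lip-1+FAC and 8.25 to 8.97 with MT+FAC. The equal-weight change was -1.69 (standard error 0.108, adjusted p by edgeR = 4.02e-09) on the log2 scale. Tedc2, a protein of the tubulin delta and epsilon complex, and Gtse1, a microtubule-binding protein of dividing cells, had equal-weight log2 fold changes of -1.29 (standard error 0.109) and -1.21 (standard error 0.140). Hdhd3, a predicted hydrolase, had -1.35 (standard error 0.128).

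Chemokine genes stood on both sides. Ccl2 (ENSMUSG00000035385, GRCm38 chromosome 11, 82035571 to 82037453), which attracts monocytes, ranged over 4.53 to 8.25 CPM in control, 12.9 to 14.8 with FAC, 17.8 to 22.1 with Lip-1+FAC and 15.8 to 28.1 with MT+FAC, a log2 fold change of 1.40 (standard error 0.196, adjusted p by edgeR = 0.000161). Cxcl12 (ENSMUSG00000061353, GRCm38 chromosome 6, 117168535 to 117181367) ranged over 11.96 to 15.5 CPM in control, 6.69 to 7.99 with FAC, 4.91 to 6.64 with Lip-1+FAC and 6.25 to 7.99 with MT+FAC, a log2 fold change of -1.05 (standard error 0.114, adjusted p by edgeR = 2.63e-06). No difference among the FAC-treated groups was called for either (edgeR adjusted p = 0.0582 and 0.164). Of 29 tested acute phase and chemokine genes, Ccl2 alone rose in all 3 groups and 3 fell (Fga, Fgb and Crp). Fgb, the fibrinogen beta chain, lay between 2589 and 2746 CPM in control and between 1805 and 2109 CPM in the FAC-treated libraries, a log2 fold change of -0.44 (standard error 0.0423). Fga had -0.49 (standard error 0.0516), and the call in FAC was lost with offsets for length and GC content, at a log2 fold change of -0.16 (adjusted p 0.0553). Crp had -0.74 (standard error 0.0811), and the call in FAC was lost without control replicate 1 or 3 or FAC replicate 1, 2 or 3 and with offsets for length and GC content, at log2 fold changes of -0.20 to -0.33 (adjusted p 0.0613 to 0.132).

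**Figure D3:**
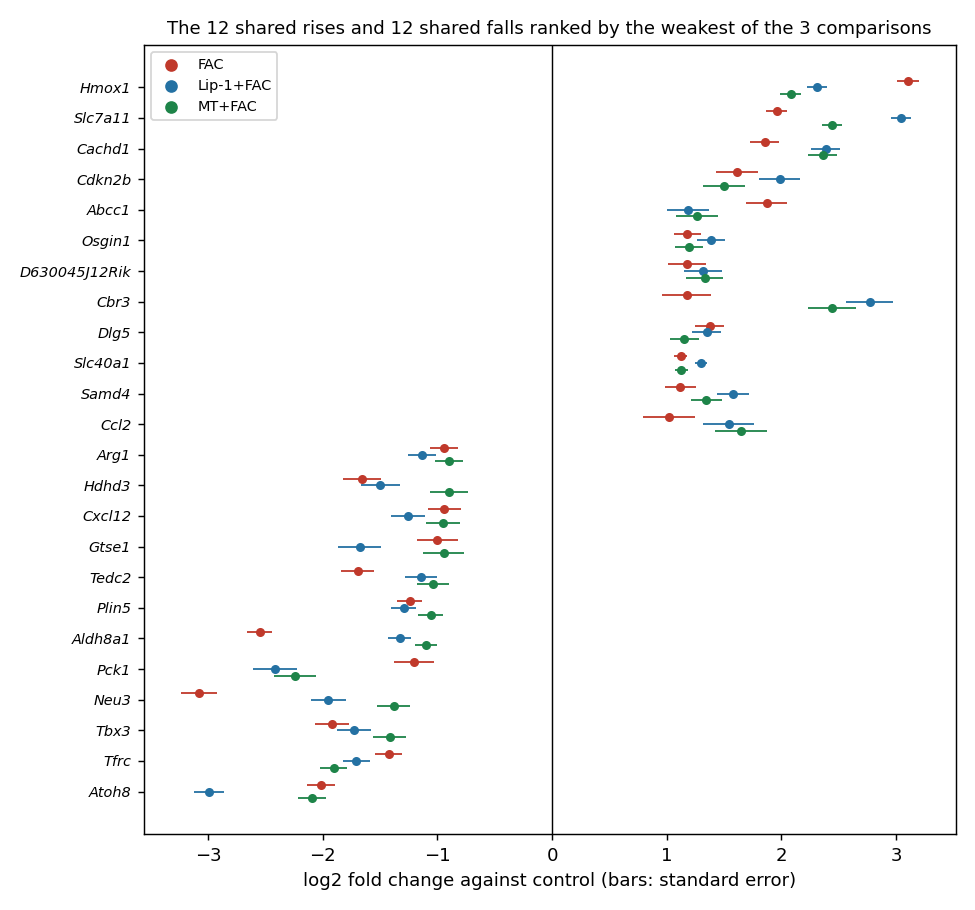
Log2 fold change against control (x axis; bars are standard errors) in FAC, Lip-1+FAC and MT+FAC for the 12 named shared rises and 12 named shared falls, ordered by the smallest of the 3 changes. Dlg5, D630045J12Rik and Osgin1 have nearly equal values in the 3 groups, whereas Cbr3, Slc7a11, Neu3 and Aldh8a1 spread by over 1.

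Some stress and growth-factor genes rose. Of 34 tested targets of the integrated stress response, the pathway through which several kinases raise the factor ATF4, 10 rose in all 3 groups (29.4%) and 0 fell, and 15 were higher and 3 lower under equal weight. Atf3 (ENSMUSG00000026628, GRCm38 chromosome 1, 191170296 to 191218039), a transcription factor induced by stress, ranged over 64.6 to 77.2 CPM in control, 136 to 161 with FAC, 108 to 109 with Lip-1+FAC and 86.5 to 110.3 with MT+FAC. On the log2 scale it changed by 0.68 (standard error 0.0746, adjusted p by edgeR = 3.87e-06) under equal weight. Trib3, a pseudokinase, had log2 fold changes of 0.45 with FAC, 0.38 with Lip-1+FAC and 0.60 with MT+FAC. Slc7a1, an arginine transporter, and Slc3a2, the heavy-chain partner of Slc7a11, had 1.06, 0.62 and 0.75 and 0.48, 0.30 and 0.23. Sars and Cebpg, a seryl-tRNA synthetase and a partner factor of ATF4, had 0.42, 0.37 and 0.24 and 0.20, 0.32 and 0.23. Ddit3 had 1.07, 0.59 and 0.38, with 10.9% of its exonic bases overlapping other genes, and the call in MT+FAC was lost without control replicate 1 or 2 or MT+FAC replicate 1 or 2 and with stranded columns summed, at log2 fold changes of 0.21 to 0.39 (adjusted p 0.0575 to 0.109). The other shared members were Slc7a11, given above, and Atf4 and Mthfd2, whose shared call was lost in 12 and 6 of the 21 alternatives.

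Of 32 tested EGFR ligands, MAPK feedback genes and AP-1 genes, which mark signalling through growth-factor receptors, 6 rose and 1 fell in all 3 groups. Egr1 (ENSMUSG00000038418, GRCm38 chromosome 18, 34859823 to 34864984), an immediate-early transcription factor, ranged over 18.8 to 20.5 CPM in control, 86.8 to 102 with FAC, 42.9 to 53.6 with Lip-1+FAC and 23.8 to 34.5 with MT+FAC. FAC was highest and MT+FAC nearest to control, and the log2 fold change was 1.39 (standard error 0.109, adjusted p by edgeR = 2.74e-07). Btc (betacellulin), a ligand of the EGF receptor, had log2 fold changes of 1.55 with FAC, 0.63 with Lip-1+FAC and 0.53 with MT+FAC, and Myc had 1.16 with FAC, 0.59 with Lip-1+FAC and 0.45 with MT+FAC. Erbb3, a receptor of the same family, fell, with log2 fold changes of -0.52 with FAC, -0.39 with Lip-1+FAC and -0.34 with MT+FAC. Dusp4, a phosphatase that restrains MAP kinases, had 2.68, 1.04 and 0.66, and the call in MT+FAC was lost without control replicate 1 or 2 or MT+FAC replicate 2 or 3, at log2 fold changes of 0.52 to 0.64 (adjusted p 0.0579 to 0.0905). Areg and Ets2 each lost the shared call in 4 of the 21 alternatives. Over the whole list the median was 0.91 in FAC and -0.10 and -0.07 in Lip-1+FAC and MT+FAC.

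Some genes of glucose output and of fat metabolism fell. Of 26 tested genes of glycolysis and glucose output, 4 fell in all 3 groups (Pck1, G6pc, Slc37a4 and Fbp1) and 0 rose, and each of the 4 acts in the release of glucose. Pck1 (ENSMUSG00000027513, GRCm38 chromosome 2, 173153048 to 173159273), the cytosolic phosphoenolpyruvate carboxykinase of gluconeogenesis, stood at 17.98, 25.2 and 18.7 CPM in control, 11.7, 8.41 and 6.78 with FAC, 4.04, 3.54 and 4.02 with Lip-1+FAC and 5.001, 4.12 and 3.93 with MT+FAC. Both pretreated groups were lower than FAC. Equal weighting gave a log2 fold change of -1.95 (standard error 0.135, adjusted p by edgeR = 1.38e-08). Slc37a4 (ENSMUSG00000032114, GRCm38 chromosome 9, 44396852 to 44402968), the glucose 6-phosphate transporter of the endoplasmic reticulum, lay between 259 and 309 CPM in control and between 149.6 and 225 CPM in the FAC-treated libraries, a log2 fold change of -0.57 (standard error 0.0705, adjusted p by edgeR = 2.27e-05). G6pc, the catalytic subunit of glucose 6-phosphatase, ranged over 3.301 to 7.34 CPM in control, 1.19 to 2.62 with FAC, 1.47 to 2.66 with Lip-1+FAC and 1.37 to 2.63 with MT+FAC. Its counts were low and varied between replicates, and the call in Lip-1+FAC was lost without control replicate 3 or Lip-1+FAC replicate 2, at log2 fold changes of -0.92 to -1.11 (adjusted p 0.0642 to 0.0698) and the call in MT+FAC was lost without control replicate 1 or 3 or MT+FAC replicate 2 or 3, at log2 fold changes of -0.84 to -1.32 (adjusted p 0.0505 to 0.126). Fbp1, fructose bisphosphatase, was -0.50 (standard error 0.102) under equal weight, and the call in FAC was lost without control replicate 1 or 3, FAC replicate 1, 2 or 3, Lip-1+FAC replicate 3 or MT+FAC replicate 3 and with offsets for length and GC content, at log2 fold changes of -0.28 to -0.39 (adjusted p 0.0514 to 0.131) and the call in MT+FAC was lost without control replicate 1 or 3 or MT+FAC replicate 2 or 3 and with offsets for length and GC content, at log2 fold changes of -0.36 to -0.51 (adjusted p 0.0516 to 0.0704).

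Of 32 tested genes of fatty acid oxidation and ketogenesis, 5 fell and 0 rose in all 3 groups, and 19 were lower and 1 higher under equal weight. Angptl4, an inhibitor of lipoprotein lipase and a target of PPARα, had log2 fold changes of -0.99 with FAC, -0.97 with Lip-1+FAC and -0.36 with MT+FAC. Eci2, an enoyl-CoA isomerase, had -0.61, -0.38 and -0.37, although annotated copies cover part of its transcript. Cpt2, the carnitine palmitoyltransferase of the inner mitochondrial membrane, had -0.42, -0.32 and -0.33, and the call in Lip-1+FAC was lost with offsets for length and GC content, at a log2 fold change of -0.17 (adjusted p 0.0929). Etfdh, which passes electrons from fatty acid oxidation to ubiquinone, had -0.29, -0.20 and -0.19, and the call in MT+FAC was lost without MT+FAC replicate 1 and with no filter on low counts, at log2 fold changes of -0.16 to -0.18 (adjusted p 0.0503 to 0.0805). Acadvl lost the shared call in 8 of the 21 alternatives. Plin5 (ENSMUSG00000011305, GRCm38 chromosome 17, 56111601 to 56117596), a coat protein that ties lipid droplets to mitochondria, was among the 12 falls ranked by the smallest of their 3 changes, with 84.3, 73.5 and 88.8 CPM in control, 31.1, 40.8 and 32.02 with FAC, 30.1, 35.1 and 35.5 with Lip-1+FAC and 43.9, 37.7 and 36.9 with MT+FAC. The 9 FAC-treated libraries stood well below control, and FAC overlapped both pretreated groups. The change over all FAC-treated groups was -1.20 (standard error 0.0832, adjusted p by edgeR = 2.52e-08) on the log2 scale. Among the FAC-treated groups it was not called (edgeR adjusted p = 0.181), and the differences from FAC with 95% confidence intervals were -0.05 (-0.29 to 0.18) for Lip-1+FAC and 0.18 (-0.05 to 0.41) for MT+FAC.

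Of 25 tested genes of lipogenesis and desaturation, 4 fell and 1 rose in all 3 groups. G0s2, an inhibitor of the triglyceride lipase ATGL, ranged over 7.26 to 10.4 CPM in control, 1.13 to 1.98 with FAC, 2.33 to 2.401 with Lip-1+FAC and 4.06 to 5.03 with MT+FAC, a log2 fold change of -1.73 (standard error 0.148, adjusted p by edgeR = 1.6e-07). Lpin1 and Gpam, enzymes of triglyceride synthesis, had -0.73 (standard error 0.0673) and -0.48 (standard error 0.0544). The gene that rose was Me1, also an NRF2 target. The other fall, Elovl2, lost the shared call in 12 of the 21 alternatives. In cholesterol biosynthesis and uptake, Ebp, a sterol isomerase, was the one fall among 25 tested genes, with log2 fold changes of -0.51, -0.34 and -0.37 in the order FAC, Lip-1+FAC and MT+FAC.

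Several genes of hepatocyte function also fell. Of 28 hepatocyte identity genes, 5 fell (among them Arg1, Tat, Nr1h4 and Cps1) and 1 rose (Apob) in all 3 groups, and 15 were lower and 1 higher under equal weight. Arg1 (ENSMUSG00000019987, GRCm38 chromosome 10, 24915221 to 24927484), the arginase of the urea cycle, stood at 501, 465 and 431 CPM in control, 225, 268 and 233 with FAC, 176, 245 and 215 with Lip-1+FAC and 219, 283 and 247 with MT+FAC. No treated library reached the control range. Its log2 fold change was -0.99 (standard error 0.0952, adjusted p by edgeR = 1.35e-05), and the differences of the pretreated groups from FAC with 95% confidence intervals were -0.19 (-0.46 to 0.08) for Lip-1+FAC and 0.05 (-0.22 to 0.31) for MT+FAC (edgeR adjusted p among groups = 0.267). Tat, an enzyme of tyrosine breakdown, had an equal-weight log2 fold change of -1.09 (standard error 0.107). Nr1h4, the bile acid receptor FXR, ranged over 70.95 to 80.1 CPM in control, 26.6 to 27.9 with FAC, 50.5 to 53.7 with Lip-1+FAC and 49.4 to 54.5 with MT+FAC and was lowest in FAC alone. Cps1, the entry enzyme of the urea cycle, had -0.88 (standard error 0.124), and the call in MT+FAC was lost without control replicate 1 or MT+FAC replicate 1 or 3 and with no filter on low counts, at log2 fold changes of -0.63 to -0.66 (adjusted p 0.0501 to 0.0593). Apob had 0.49 (standard error 0.0880), and the call in FAC was lost with offsets for length and GC content, at a log2 fold change of 0.25 (adjusted p 0.13) and the call in Lip-1+FAC was lost with offsets for length and GC content, at a log2 fold change of 0.30 (adjusted p 0.0905) and the call in MT+FAC was lost with offsets for length and GC content, at a log2 fold change of 0.36 (adjusted p 0.0658). The hepatocyte markers Alb, Ttr, Apoa1, Serpina1a, Trf and Asgr1 were not shared genes, and Cps1 and Apob, the other two of the 8 markers, moved in opposite directions. The summed level of the 8 was 53464 to 57183 CPM in control, 48680 to 51927 with FAC, 53873 to 59634 with Lip-1+FAC and 58530 to 59185 with MT+FAC. Every FAC library lay below the control range and every MT+FAC library above it. Most of the sum was Trf (transferrin), which lay between 32199 and 45102 CPM. The part of hepatocyte content in the falls was not tested. Of 32 dedifferentiation and cytoskeleton genes 0 met the rule, with 3 higher and 5 lower under equal weight.

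Falls outnumbered rises among bile acid genes and cytochromes. Of 21 tested bile acid genes, 3 fell (Slc10a1, Akr1d1 and Nr1h4) and 1 rose (Abcc2). Slc10a1, the bile acid importer NTCP, lay between 24.2 and 28.2 CPM in control and between 11.7 and 17.2 CPM in the FAC-treated libraries, a log2 fold change of -0.81 (standard error 0.0918, adjusted p by edgeR = 4.28e-06). Akr1d1, a reductase of bile acid synthesis, had -0.83 (standard error 0.0986). Of 28 cytochrome P450 and xenobiotic receptor genes, 5 fell and Cyp2a5 rose. Cyp2d22 was -0.31 (standard error 0.0517), and the call in MT+FAC was lost without control replicate 2, at a log2 fold change of -0.20 (adjusted p 0.053). Cyp2d10 shares sequence with Cyp2d9, and Cyp3a25 with Cyp3a59, so that their values are uncertain, and Cyp2d10 and Cyp3a25 lost the shared call in 1 and 11 of the 21 alternatives. Cyp2c70 and Nr1i2 lost it in 5 and 11.

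Shared genes were also found in other lists, against 7.26% of all genes in either direction. Of 24 tested genes of ferroptosis and lipid peroxide defence, 6 rose and Tfrc fell (29.2% in all). Gch1, which makes tetrahydrobiopterin, rose by 0.54 with FAC, 0.72 with Lip-1+FAC and 0.49 with MT+FAC on the log2 scale, and Acsl3, which activates fatty acids, by 0.47 with FAC, 0.53 with Lip-1+FAC and 0.25 with MT+FAC. Trp53 had 0.31, 0.45 and 0.35. Cyb5r1, a reductase linked to lipid peroxidation, had 0.43, 0.32 and 0.30, and the call in MT+FAC was lost without control replicate 1 or MT+FAC replicate 2, at log2 fold changes of 0.24 to 0.25 (adjusted p 0.0868 to 0.0875). The lysosome and autophagy list had 5 rises and 1 fall (Neu3) among 33 genes, the rises including Tfe3, a transcription factor of lysosomal genes (0.51 (standard error 0.0531)), and Ctsl, a cathepsin (0.33 (standard error 0.0410)), 26.8% of whose exonic bases overlap other genes. Of the others, Gabarapl1 and Atp6v1b2, lost the shared call in 5 and 4 of the 21 alternatives. Of 24 p53 targets 2 rose and 4 fell (25% in all), although 2 of the falls, Ei24 and Fas, lost the shared call in 14 and 4 of the 21 alternatives. The kinases Plk2 and Plk3 had 0.76 (standard error 0.0703) and 0.87 (standard error 0.102), and Sesn1 and Ccng1 had -0.75 (standard error 0.0556) and -0.38 (standard error 0.0512). In the circadian clock list 4 of 21 rose and 0 fell, led by Nr1d2, the repressor REV-ERBβ (0.74 (standard error 0.0722)), although an annotated copy covers 29.7% of its transcript. Csnk1d, Clock and Csnk1e, the other shared clock genes, lost the shared call in 14, 4 and 1 of the 21 alternatives. Among 21 metallothionein and zinc transporter genes, the manganese exporter Slc30a10 fell (-1.23 (standard error 0.138)) beside Slc39a14. Slc30a4 rose (0.83 (standard error 0.135)), and the call in MT+FAC was lost without control replicate 1 or 3 or MT+FAC replicate 2 or 3, at log2 fold changes of 0.49 to 0.54 (adjusted p 0.0741 to 0.107).

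Lists tied to iron as a cofactor were also counted. Of 23 iron-sulfur cluster assembly genes, 2 fell (Iscu and Isca2, 8.7%, against 2.74% of all genes) and 0 rose, and their shared call was lost in 11 and 6 of the 21 alternatives. Of 34 iron-dependent dioxygenases, Kdm5b alone met the rule (0.30 (standard error 0.0572)), and the call in Lip-1+FAC was lost with offsets for length and GC content, at a log2 fold change of 0.04 (adjusted p 0.674) and the call in MT+FAC was lost without control replicate 3 or MT+FAC replicate 1 or 2 and with offsets for length and GC content, at log2 fold changes of 0.02 to 0.22 (adjusted p 0.0697 to 0.837). Of 34 HIF targets, which answer to the oxygen- and iron-dependent prolyl hydroxylases, 1 fell and 0 rose, although 16 were lower under equal weight. That gene, Epo, which encodes erythropoietin, ranged over 1.03 to 1.71 CPM in control, 0.345 to 0.621 with FAC, 0.146 to 0.250 with Lip-1+FAC and 0.259 to 0.531 with MT+FAC. At under 2 CPM its counts were low, and the call in FAC was lost without control replicate 1 or FAC replicate 2, at log2 fold changes of -1.13 to -1.19 (adjusted p 0.0563 to 0.0662) and the call in MT+FAC was lost without control replicate 1, at a log2 fold change of -1.43 (adjusted p 0.0522). The median of the HIF list was 0.33 with FAC, -0.66 with Lip-1+FAC and -0.48 with MT+FAC. None of 10 tested mitochondrially encoded mRNAs was a shared gene.

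**Figure D4:**
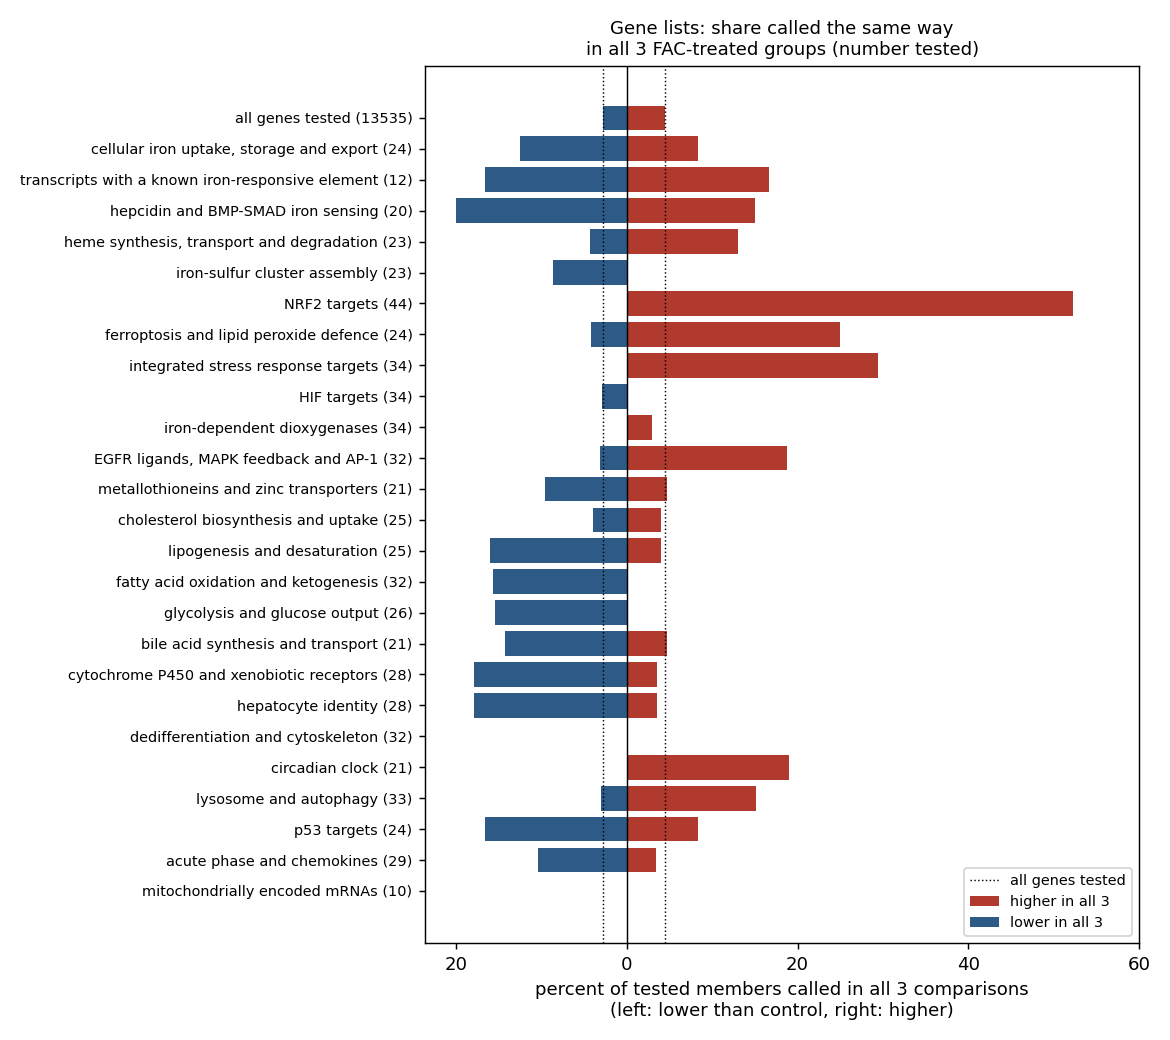
Percent of the tested members of each gene list called lower (left) or higher (right) in all 3 comparisons with control (x axis), with the number tested in brackets; dotted lines mark all genes tested, 2.74% lower and 4.52% higher. NRF2 targets reach 52.3% on the right, and no member of the dedifferentiation or mitochondrial lists was shared.

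A test among the 3 FAC-treated groups, which uses no control library, called 5830 of all genes (43.1%) and 429 of the 983 shared genes (43.6%), so that the share among shared genes lay near the background. Of the 256 shared rises that differed, the highest mean was in FAC for 136, in Lip-1+FAC for 118 and in MT+FAC for 2, and MT+FAC held the lowest mean for 161. Of the 173 shared falls that differed, the lowest mean was in FAC for 104, in Lip-1+FAC for 67 and in MT+FAC for 2. Median log2 fold changes of the shared rises were 0.52 with FAC, 0.52 with Lip-1+FAC and 0.41 with MT+FAC, and those of the shared falls were -0.58, -0.59 and -0.46. The other 554 shared genes were not called in this test, which does not show that their levels were equal.

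The shared genes differed from all tested genes in level and length. Their median mean level was 56.7 CPM for rises and 39.6 CPM for falls, against 17.97 CPM for all genes tested. Calls are made more readily at higher counts. The median exonic length was 6960 bases for rises and 3366 bases for falls, against 4098 bases for all. With offsets for length and GC content, 906 genes were shared, of which 687 were among the 983, and median lengths were 4775 bases for rises and 5364 bases for falls. The part of transcript length or RNA quality in these calls was not tested beyond this. Among the shared rises, 10 had fewer than 3 control libraries at the filter level of 0.371 CPM, so that they entered the test through the FAC-treated libraries. Exonic overlap with other genes was also present in Acadvl (42.9%), Gabarapl1 (28.3%), Epo (12.2%), Samd4 (9.73%) and Slc30a10 (9.13%), and in Trf (63.5%). Annotated copies covered 30.2% of the transcript of Iscu and 10.8% of that of Trp53. Reads of these genes may be shared with their neighbours or copies.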

How the data were processed

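RNA of 12 libraries was turned into cDNA with the SMART-Seq v4 kit, made into libraries with Nextera XT and sequenced as paired ends on a NovaSeq instrument, per the labels' protocols. STAR and the build GRCm38 are named in the submitters' processing notes. The version of STAR and the annotation are not given in the sources used here. The deposited files hold raw counts per gene, whole numbers that the authors did not normalize, in the layout STAR writes. The unstranded column was used, and the 4 leading lines that name no gene, which held 18.8% to 24.2% of the reads listed, were left out. Reads mapping to several places are not counted in this layout. Of 55487 identifiers, 55227 matched GENCODE M21.

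Counts were tested with edgeR 4.0.16 (R 4.3.3) by quasi-likelihood F tests (filterByExpr, TMM, robust, 4 group means, all 12 libraries), two-sided and adjusted by Benjamini-Hochberg over 13535 genes. The 3 groups were tested against control singly and with equal weight, and against each other on 2 degrees of freedom. Each standard error is the size of the log2 fold change divided by the square root of F. The common biological coefficient of variation was 9.71%. The test was checked on simulated data. Depth sets counting error only, and reads carry no molecular identifiers.

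The members and gene lists were chosen with earlier results of these data known. Lists were described by counts and medians. Genes named were the 12 shared rises and 12 falls ranked by the smallest of the 3 changes (protein-coding, mean of at least 5 CPM, no overlap), up to 4 shared rises and 4 falls of each list, all members of the iron, IRE, hepcidin and heme lists, the 2 genes on either side of the threshold, and list members called under equal weight. Copies were sought among annotated transcripts with blastn 2.17.0+ at 95% identity over at least 200 bases. Alternatives changed scaling, the filter, the test (DESeq2 1.42.0), thresholds, depth, counting columns, the libraries in the fit and offsets for length and GC content. The labels do not say whether replicate numbers pair the libraries, and the main fit did not pair them. Protein sequences and a genome sequence were not used here. A few members of the gene lists are not reported here.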

Additional observations from a re-analysis of the deposited data

Results flagged for a closer look

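Of the 125 named shared genes, 82 differed in level among the 3 FAC-treated groups although all were called in one direction against control. Values are given here for the 12 leading rises, the 12 leading falls and the shared members of the iron, IRE, hepcidin and heme lists, 37 genes of which 26 differed. The values below are edgeR adjusted p-values of that test over all 13535 genes, and 43.1% of all genes passed it.

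Among rises, the level was highest in FAC for Hmox1 (2.9e-07), Abcc1 (0.00367) and Neo1 (0.00852). It was highest in Lip-1+FAC for Slc7a11 (5.36e-08), Cbr3 (5.2e-06), Cachd1 (0.00498), Cdc42bpa (0.00273), Slc48a1 (0.0037), Pgrmc1 (0.00613), Slc40a1 (0.016), Samd4 (0.0242), Smad4 (0.037) and Cdkn2b (0.0448).

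Among falls, the level was lowest in FAC for Aldh8a1 (3.12e-08), Hfe2 (2.13e-07), Neu3 (8.72e-07), Hdhd3 (0.00326), Tedc2 (0.00329), Slc11a2 (0.00618) and Tbx3 (0.0295). It was lowest in Lip-1+FAC for Atoh8 (2.38e-05), Slc39a14 (2.72e-05), Pck1 (7.39e-05), Hamp (8.6e-05) and Gtse1 (0.00879), and lowest in MT+FAC for Tfrc (0.00992).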

How the results depend on the processing

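The 3 counts were recomputed under 22 alternatives and the number of shared genes under 3 more, of which the offsets for length and GC content were chosen after seeing that the rising genes were longer. At an adjusted p under 0.01, 2401 genes were called under equal weight and 507 were shared. Requiring a change of 0.5 or more on the log2 scale in each comparison left 299 shared genes, whereas requiring only a call under equal weight with one sign in all 3 gave 3439. Leaving out single replicates gave 2812 (without control replicate 3) to 4227 genes under equal weight, 718 (without control replicate 1) to 1047 shared genes and 4840 to 6112 genes that differed among the FAC-treated groups. Every other alternative stayed within 1.5 times, with 888 to 1116 shared genes, the latter from DESeq2. Between scalings, the share of upward calls under equal weight ranged from 44.7% with upper-quartile scaling to 52.1% with RLE size factors, against 48.6% with TMM. No named gene reversed. Of 3834 values of 183 named genes, 3765 stayed on their side of the threshold, 51 lost the equal-weight call and 18 gained it, and 81 of the 125 named shared genes kept the shared call in the 21 of them that left the threshold and the rule as they were and refitted the named genes. With a replicate block the counts were 3896, 955 and 5670. Same-numbered libraries correlated above 0.1 in 3 of 18 pairs (range -0.249 to 0.164), and libraries with different numbers ranged over -0.196 to 0.221. With 3 libraries per group, these values cannot exclude a shared mouse or preparation behind a number. Genes at a few CPM, such as Epo and G6pc, are limited by their counts.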

Other observations

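The 10 shared genes other than Slc40a1 with a canonical IRE-like hairpin were found by sequence alone, in the 3′ UTR. Besides Tfrc, Pex11a fell and Camsap1, Cds2, Cxcl16, Impact, N4bp1, Slc6a6, Slx4 and Zbtb20 rose in all 3 groups. A match to the pattern does not show that an iron regulatory protein binds there, and 3′ UTR matches were found in 1.31% of shared rises and 0.539% of shared falls, against 0.791% of all tested genes.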
